A study of Mus musculus with 27 samples.

Results

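Tumors grown from Mettl3 knockout (KO) cells were compared with tumors grown from Mettl14 knockout cells, 5 RNA-seq samples of each, 10 of the 27 samples of the series. The samples were picked by their titles, while the comparison itself was chosen with earlier results of these data known. All were made with CT26 cells, a colon carcinoma line of the BALB/c mouse, which had received guide RNAs against Mettl3 or Mettl14. Per the labels' protocols, 2 M cells (M for mega) were injected under the skin of the flank, and the mice got antibody doses of 200 µg (10 mg/kg) between days 11 and 23. The protocols list anti-PD-1, anti-CTLA-4 and IgG without tying a sample to one of them, and the series design speaks of anti-PD-1 therapy for all tumors. Another 5 tumors with a control guide are used below as a reference level. The labels do not tie a sample to an animal or a clone of cells, so each p-value reflects only how these samples vary, which may be technical in part.

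Mettl3 and Mettl14 form the core of the enzyme complex that writes N6-methyladenosine (m6A), the most common internal mark of messenger RNA. Mettl3 holds the catalytic site, and Mettl14 holds the RNA in place and stabilises its partner. Reader proteins bind the mark and speed the decay, splicing or translation of the marked transcripts. Since both proteins serve the same enzyme, the comparison asks where loss of either partner gives different tumors. The knockout is in the injected cells alone, while the blood vessels, fibroblasts, immune cells and neighbouring tissue of the host keep both genes.

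The libraries of the groups differed in make-up, which touches all results below. Reads counted on genes came to 6.57 ± 1.99 M in Mettl3 KO and 10.6 ± 4.301 M in Mettl14 KO tumors (SD, n = 5 each). Reads outside genes took 60.2% to 77.98% of uniquely aligned reads in Mettl3 KO and 53.6% to 65.9% in Mettl14 KO libraries. The 5 satellite-like models, which collect reads from repeated DNA, held 25.5 ± 16.7% of gene counts after Mettl3 knockout and 3.19 ± 2.904% after Mettl14 knockout. Every Mettl3 KO library lay above every Mettl14 KO library in that share (two-sided exact permutation p = 0.00794, adjusted p = 0.0317 over 8 measures), with Mettl3 KO 1 and Mettl3 KO 3 highest at 47.1% and 36.9%. Mitochondrially encoded genes took 1.95 ± 0.498% and 4.12 ± 1.01%, with no overlap (exact permutation p = 0.00794, adjusted p = 0.0317). The smallest p that 5 against 5 allows is 0.00794. The other 6 measures did not pass adjustment, and their adjusted p ranged from 0.106 to 0.857 by the same exact permutation test.

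**Figure D1:**
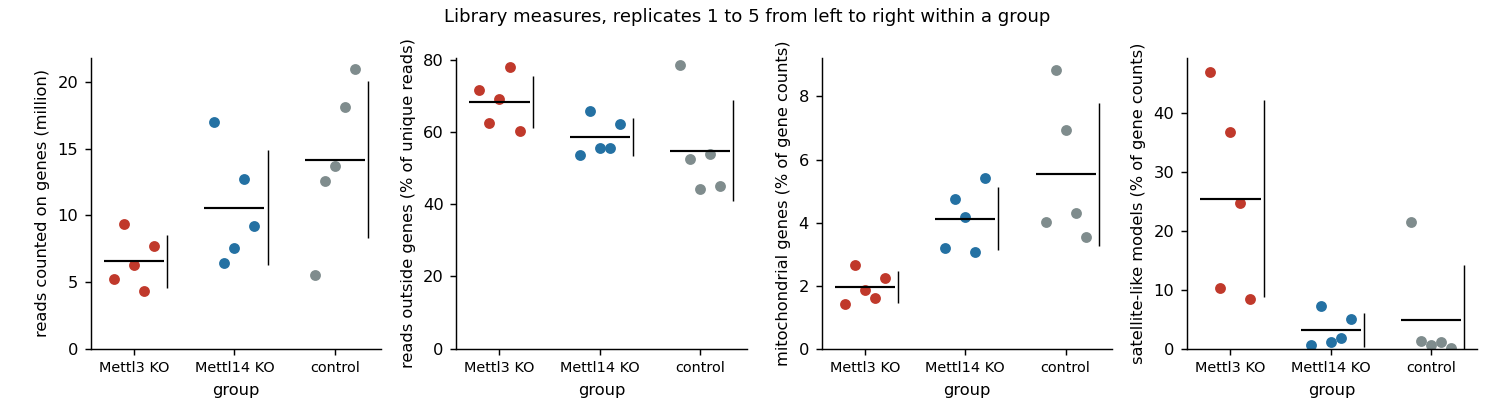
Reads counted on genes, reads outside genes, mitochondrial share and satellite-like share in each of the 15 tumors, 1 point per library, with the group mean (bar) and SD (line at its right, not drawn below 0). The Mettl3 KO points lie above all Mettl14 KO points for the satellite-like share and below all of them for the mitochondrial share.

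The RNA of Mettl3 was lower in the Mettl3 KO tumors by the test of its level, and that of Mettl14 did not pass. Mettl3 (chromosome 14, 52294841 to 52305128, mm10) had 13.6, 16.3, 12.5, 13.3 and 13.5 CPM (reads scaled to a common library total) in Mettl3 KO tumors 1 to 5 and 17.3, 15.1, 17.8, 19.8 and 15.8 CPM in Mettl14 KO tumors. Mettl14 (chromosome 3, 123368297 to 123386108) had 37.7, 70.6, 56.2, 39.3 and 70.6 CPM in Mettl3 KO and 58.5, 52.9, 80.03, 49.1 and 67.6 CPM in Mettl14 KO tumors. The groups overlapped for both genes. The mean level of Mettl3 was 13.8 against 17.2 CPM (two-sided exact permutation p = 0.0238, adjusted p = 0.0476 over the 2 genes), and that of Mettl14 was 54.9 against 61.6 CPM (exact permutation p = 0.484). With 1 library left out, the adjusted exact permutation p for Mettl3 was under 0.05 without Mettl3 KO 2 (0.0317) and 0.0635 to 0.0952 without each of the other 9. Across all genes neither passed. The log2 fold change, here always Mettl3 KO over Mettl14 KO, was -0.24 for Mettl3 (SE 0.14 and edgeR adjusted p = 0.266) and -0.10 for Mettl14 (SE 0.19 and edgeR adjusted p = 0.731). With the median of genes of like abundance taken off, the log2 fold change was -0.11 for Mettl3 and 0.18 for Mettl14. The permutation test of level made no such allowance, so it cannot tell Mettl3 from other genes of its abundance. An edited gene can still be transcribed and host cells carry intact copies, so RNA says little about the edit. Krt20, a keratin of the gut lining, was present at 29.6 to 97.4 CPM in Mettl3 KO and 64.8 to 145 CPM in Mettl14 KO tumors, while Epcam, the usual surface marker of epithelium, was near the floor at 1.103 to 6.204 and 0.353 to 1.83 CPM.

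Across all genes, no single gene separated the knockouts after adjustment. By the edgeR quasi-likelihood test with Benjamini-Hochberg adjustment, 0 of 20989 genes (0%) had an adjusted p under 0.05, and the lowest was 0.08003. At an unadjusted p under 0.05 there were 5647 genes (26.9%), 3680 higher in Mettl3 KO (17.5%) and 1967 lower (9.37%). DESeq2 called 1268 genes higher and 277 lower, and voom with limma called 0. Without Mettl3 KO 2, edgeR called 1193 higher and 203 lower. In 1.25% of genes every Mettl3 KO library lay above every Mettl14 KO library, and in 2.16% below. So genes named below are described by their values, and none rose or fell by the adjusted test across genes.

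The difference followed abundance. Genes with a mean of 2 to 4 CPM had a median log2 fold change of 0.73, those of 16 to 64 CPM -0.23 and those of at least 256 CPM -0.34, against -0.05 for all genes. Among genes of at least 16 CPM, 21.0% were lower in Mettl3 KO at an unadjusted p under 0.05 and 0.645% higher. Olfactory and vomeronasal receptor genes, which serve smell in the nose, summed to 1296 to 4394 CPM in Mettl3 KO and 575 to 1741 CPM in Mettl14 KO tumors, and the groups overlapped. As a share of gene counts they did not pass (exact permutation p = 0.0556, adjusted p = 0.111 over 8 measures), and 408 of 1457 passed the filter on low counts. The part of the library measures in this trend was not tested. After the reads per kb over these receptor genes were subtracted from every gene as background, 4.84% of 16800 genes were higher and 3.01% lower at an unadjusted p under 0.05. That background averaged 0.531 CPM per kb of exon in Mettl3 KO and 0.204 in Mettl14 KO. More was thus taken from Mettl3 KO, so a smaller share of genes higher there is in part built in. The main fit tested 20989 genes, so its shares are over another set. For each list below, the median log2 fold change is followed by the same median after that of genes of like abundance (50 bins) was taken off. A count of members lower is to be read against 9.37% of all genes and 21.0% of those of at least 16 CPM, and a count higher against 17.5% of all genes and 38.6% of those of 2 to 4 CPM. For the alternative fits below, only the share of all genes is given. Shares of genes of like level were not counted there, so those counts make no allowance for abundance.

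**Figure D2:**
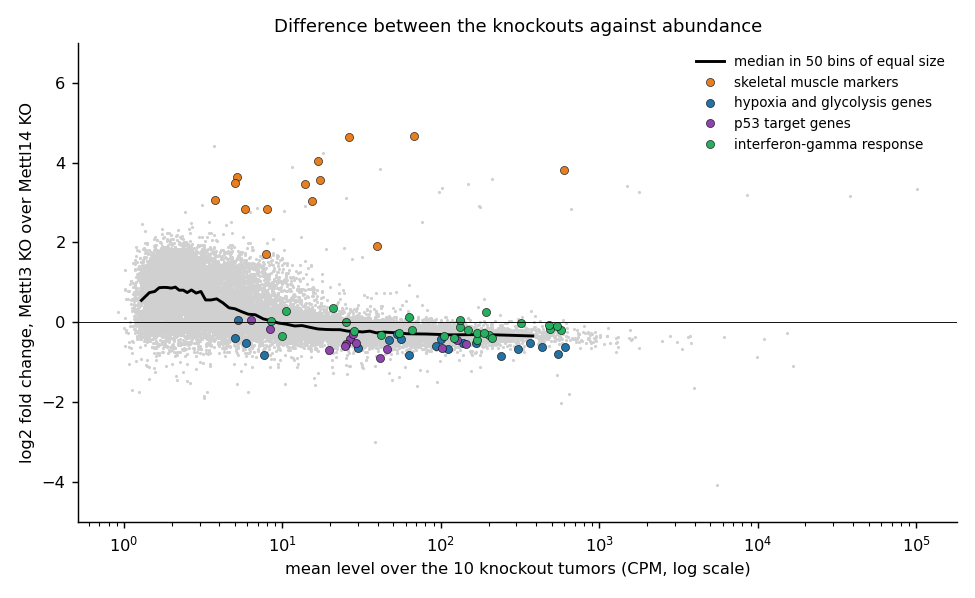
Log2 fold change of Mettl3 KO over Mettl14 KO against the mean level in the 10 knockout tumors (log scale), 1 grey point per tested gene, with the median in 50 bins (black line) and 4 gene lists in color. The median runs from above 0 at low levels to -0.34 at 256 CPM and more, with muscle genes far above it and hypoxia and p53 genes mostly below it.

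The widest difference lay in skeletal muscle genes, which build and power the contractile fibers of the muscle under the flank skin. All 14 tested members of 16 listed were higher in Mettl3 KO at an unadjusted p under 0.05, against 17.5% of all genes, and 5 had no overlap, against 1.25%. Their median log2 fold change was 3.48, and 3.22 against genes of like abundance. Their summed level was 235 to 4878 CPM in Mettl3 KO, 61.3 to 279 CPM in Mettl14 KO and 308 to 1481 CPM in control tumors. By this sum the Mettl3 KO range spanned the control range, and every Mettl14 KO tumor lay below every control tumor. A member near the floor in Mettl14 KO could pass the filter on low counts through Mettl3 KO alone, while the sum holds all listed members. In whole tumors, fewer cells of a type and less RNA per cell cannot be told apart.

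Myh4 (chromosome 11, 67238029 to 67260446), the myosin heavy chain of fast fibers, read 11.9, 39.1, 68.5, 151 and 375 CPM in Mettl3 KO tumors and 0.648, 5.11, 1.99, 1.81 and 17.4 CPM in Mettl14 KO tumors. Control tumors held 83.5, 9.58, 134, 81.3 and 149 CPM. Mettl14 KO 5 reached into the Mettl3 KO range, and the 4 others lay below all of it. Myh4 stood at a log2 fold change of 4.66 (SE 1.14 and edgeR adjusted p = 0.115), and it was named after its values were seen. Car3, a carbonic anhydrase of slow muscle and fat, read 35.2, 2.94, 11.6, 13.7 and 44.6 CPM against 2.53, 1.11, 0.929, 1.34 and 1.32 CPM. The groups did not overlap for Car3, whose log2 fold change was 3.90 (SE 0.66 and edgeR adjusted p = 0.115). Pvalb, a calcium buffer of fast fibers, read 1.84, 3.85, 5.15, 10.5 and 12.01 CPM against 0.5302, 1.66, 0.265, 0.7096 and 1.12 CPM, again without overlap. Its log2 fold change was 3.06 (SE 0.54 and edgeR adjusted p = 0.113).

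Further muscle genes also lay higher in Mettl3 KO. Myl1, a myosin light chain, had a log2 fold change of 3.64, Ckm, the muscle creatine kinase, 3.49, and Tnnt3, troponin T of fast fibers, 3.47, all 3 without overlap. Among the 12 genes with the smallest p in this direction were also Trdn (triadin, of the calcium release unit) at 2.76, Ppp1r3a (which ties a phosphatase to glycogen) at 2.51, Myot (myotilin, of the Z disc) at 2.49 and Ano5 (an anoctamin of muscle membranes) at 1.77. Within the Mettl3 KO group the muscle level was widely spread, and tumors 4 and 5 were highest for Myh4, Myl1 and Tnnt3. Satellite-like models held 24.8% of gene counts in tumor 4 and 8.51% in tumor 5, in a group range of 8.51% to 47.1%. Of the Mettl3 KO libraries, tumor 4 had the largest share of reads outside genes (77.98%) and tumor 5 the smallest (60.2%). The part of library make-up in the muscle difference was not tested. Without Mettl3 KO 1 and 3, all 14 members stayed higher at an unadjusted p under 0.05, against 6.94% of all genes, and the median was 3.93. With the share of reads outside genes as a covariate the median was 3.30, though Ano5 was at 1.14.

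The remaining genes among the 12 with the smallest p were weakly expressed. Nlgn1, a synaptic adhesion protein, read 8.96, 7.197, 7.902, 3.43 and 9.31 CPM in Mettl3 KO and 0.766, 2.35, 1.59, 1.104 and 1.52 CPM in Mettl14 KO tumors. Its log2 fold change was 2.43 (SE 0.36 and edgeR adjusted p = 0.08003), the smallest p outside unnamed gene models. Gad2, an enzyme that makes the transmitter GABA, had a log2 fold change of 2.03, Ccdc38, a coiled-coil gene, 1.64, Dzank1 1.43 and the pheromone receptor Vmn2r75 1.98. None of these overlapped between the groups. They were picked for their small p, so the lack of overlap is no separate evidence. A gene near the floor in Mettl14 KO, such as Vmn2r75 at 0.406 to 0.829 CPM, could pass the filter on low counts through Mettl3 KO alone. With the covariate Gad2 was at 0.99 and Dzank1 at 0.74. After background per kb was subtracted, Nlgn1 and Vmn2r75 no longer passed the filter on low counts and were not fitted. Gad2, Ccdc38 and Dzank1 still passed it, at 3.37, 1.97 and 1.74. Ank2, an ankyrin that anchors membrane proteins, stood out by its level, with 60.9, 94.8, 80.3, 68.6 and 101 CPM against 40.9, 50.8, 38.1, 52.9 and 40.02 CPM. Every Mettl3 KO tumor lay above every Mettl14 KO tumor, at a log2 fold change of 0.93 (SE 0.16 and edgeR adjusted p = 0.113). In control 1, which had the largest share of reads outside genes of all 15 libraries (78.6%), Nlgn1 read 8.27, Gad2 6.65 and Dzank1 16.4 CPM, and in the other 4 controls at most 1.21, 2.097 and 2.704 CPM. Ank2 read 62.8 CPM in control 1 and 23.3 to 38.9 CPM in the other 4. Vmn2r75 read 3.57 CPM in control 1 and at most 0.442 CPM in the other 4. Ccdc38 read 6.65 CPM in control 1 and 6.58 CPM in control 2. Control 1 is 1 library, and the part of reads outside genes in the levels of these genes was not tested.

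Among named genes that lay lower in Mettl3 KO, the matrix genes Timp1 and Tnc had some of the smallest p. Timp1 (chromosome X, 20870166 to 20874735), an inhibitor of matrix metalloproteases, read 81.6, 136, 79.02, 109 and 134 CPM in Mettl3 KO and 228, 205, 220.2, 309 and 255 CPM in Mettl14 KO tumors. The groups did not overlap, and the log2 fold change was -1.11 (SE 0.18 and edgeR adjusted p = 0.113), the smallest p among named genes in this direction. Tnc (chromosome 4, 63959785 to 64047015), the wound matrix protein tenascin C, read 93.3, 87.8, 121, 50.3 and 99.7 CPM against 206, 275, 148, 250.2 and 219 CPM. Mettl14 KO 3 was the lowest of its group and still above Mettl3 KO 3, the highest of the other, at a log2 fold change of -1.22 (SE 0.22 and edgeR adjusted p = 0.113).

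Their lists gave shares near those of other genes of at least 16 CPM (21.0% lower). Of 15 fibroblast and matrix genes tested, 3 were lower at an unadjusted p under 0.05 and 0 higher, with a median of -0.50 and of -0.16 against like abundance. Without Mettl3 KO 1 and 3, 5 of 15 were lower, against 2.55% of all genes. After background per kb was subtracted, 1 of 15 was, against 3.01%. In neither fit was the share of genes of at least 16 CPM counted, so these counts do not set the list apart from other abundant genes. Col1a1, the main fibrillar collagen, ranged over 187 to 404 CPM in Mettl3 KO and 208 to 1629 CPM in Mettl14 KO tumors, and the groups overlapped. In Mettl14 KO tumors 1, 2 and 4 it exceeded every Mettl3 KO tumor, and in 3 and 5 it did not. Acta2, the actin of contractile fibroblasts, had a log2 fold change of -1.11 and overlapped as well. Of 16 TGF-beta and mesenchymal genes, 3 were lower and 0 higher (median -0.25, and 0.02 against like abundance). Skil, a repressor of TGF-beta signaling, had a log2 fold change of -0.46 without overlap. Ptgs2, the inducible cyclooxygenase, read 116, 80.2, 101, 102 and 85.9 CPM against 128, 169, 186, 220.2 and 203 CPM, a log2 fold change of -0.83 with no overlap.

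**Figure D3:**
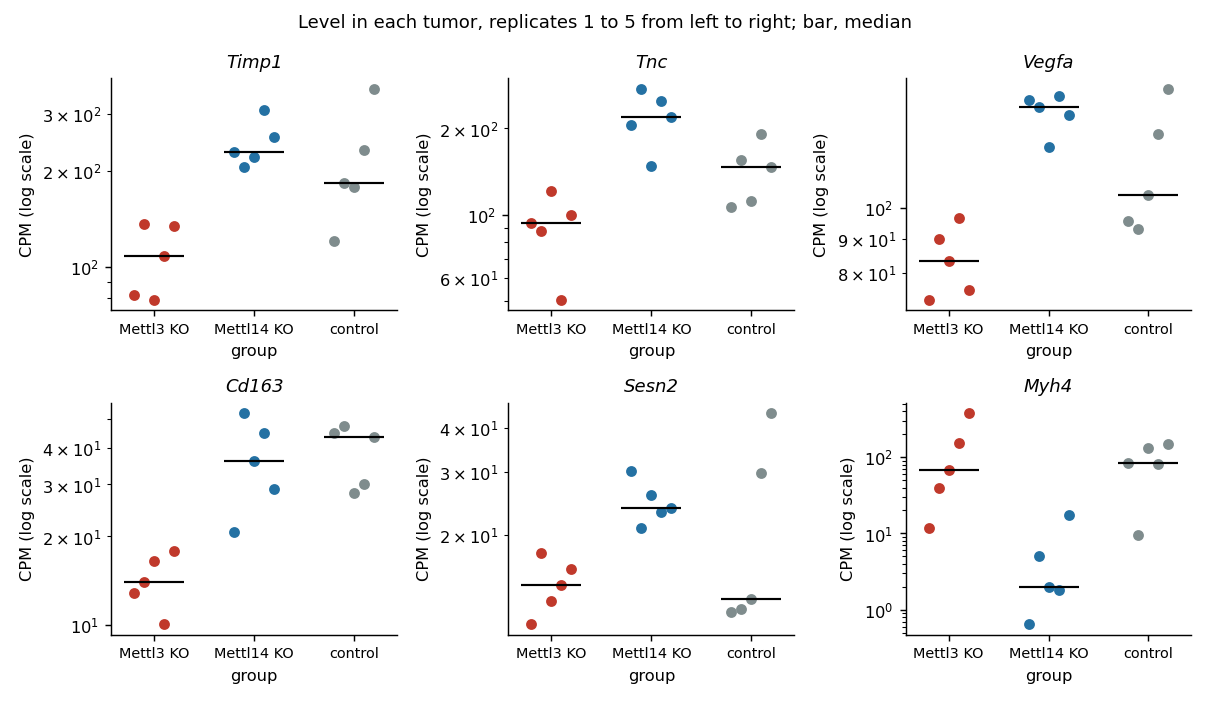
Level of 6 genes in each tumor (CPM, log scale), 1 point per library and a bar at the group median. Timp1, Tnc, Vegfa, Cd163 and Sesn2 have all Mettl3 KO points below all Mettl14 KO points, and Myh4 has 4 of 5 Mettl14 KO points below the whole Mettl3 KO group.

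Hypoxia and glycolysis genes formed the list with the most members lower in Mettl3 KO. Cells short of oxygen stabilise the factor HIF-1, which binds a short core sequence near genes for glucose use and vessel growth. Of 20 members, 15 were lower at an unadjusted p under 0.05, against 9.37% of all genes and 21.0% of those of at least 16 CPM. In 8 members the groups did not overlap, against 2.16% and 4.44%. The median log2 fold change was -0.56, and -0.28 against genes of like abundance. Per tumor, the summed level was 2120.3 to 2991 CPM in Mettl3 KO and 3363 to 5628 CPM in Mettl14 KO, without overlap, and 2076 to 3833 CPM in control tumors, which spanned the gap.

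Promoters of 4 of these genes, with the smallest p of those in the RefSeq table (GRCm38.p6), are shown because the genes lay lower together. Each runs from 250 bases before to 50 after a start site, 5′ to 3′ on the gene's strand. Capitals mark the hypoxia response core ACGTG or its variant GCGTG, read on either strand and counted once where they overlap. The windows are chr17:46032328-46032627 on the minus strand, chr10:78009758-78010057 on the minus strand, chr4:150236458-150236757 on the plus strand and chrX:106186850-106187149 on the plus strand. Vegfa and Eno1 have more than 1 start in the table, of which the first is shown.
Vegfa: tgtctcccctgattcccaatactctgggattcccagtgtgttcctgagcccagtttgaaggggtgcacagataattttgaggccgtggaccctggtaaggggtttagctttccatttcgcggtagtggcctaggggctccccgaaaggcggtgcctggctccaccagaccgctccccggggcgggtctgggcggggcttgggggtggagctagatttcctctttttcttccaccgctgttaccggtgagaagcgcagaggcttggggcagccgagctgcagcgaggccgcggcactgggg
Pfkl: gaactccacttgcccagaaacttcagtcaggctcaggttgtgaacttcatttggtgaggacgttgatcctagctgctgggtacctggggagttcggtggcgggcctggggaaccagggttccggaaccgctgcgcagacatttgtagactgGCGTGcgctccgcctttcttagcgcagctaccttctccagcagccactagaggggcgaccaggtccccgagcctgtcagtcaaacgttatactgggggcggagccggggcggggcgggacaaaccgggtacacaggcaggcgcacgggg
Eno1: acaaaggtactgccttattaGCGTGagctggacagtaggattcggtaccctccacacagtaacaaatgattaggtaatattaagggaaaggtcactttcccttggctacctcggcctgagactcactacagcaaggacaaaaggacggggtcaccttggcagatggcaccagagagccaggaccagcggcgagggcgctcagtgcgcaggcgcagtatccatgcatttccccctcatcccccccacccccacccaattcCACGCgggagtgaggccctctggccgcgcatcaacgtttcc
Pgk1: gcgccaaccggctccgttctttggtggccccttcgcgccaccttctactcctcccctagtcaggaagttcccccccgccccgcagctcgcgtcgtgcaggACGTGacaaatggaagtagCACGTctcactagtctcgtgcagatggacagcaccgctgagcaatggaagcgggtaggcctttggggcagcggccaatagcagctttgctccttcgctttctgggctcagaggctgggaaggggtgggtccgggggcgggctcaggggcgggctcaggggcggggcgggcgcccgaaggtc
The scan found 1 core in the Pfkl window, 2 in that of Eno1, 2 in that of Pgk1 and 0 in that of Vegfa. Of 19 list members in the table, 16 (84.2%) held a core, against 43.8% of 27025 genes. The list groups genes by role, so this share describes the list and not the difference between the knockouts. A match describes letters, and no match says only that they are not in this window.

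Vegfa (chromosome 17, 46016993 to 46032369), the main growth factor of vessels, read 73.1, 90.01, 83.4, 96.8 and 75.6 CPM in Mettl3 KO and 145, 142, 123, 147 and 138 CPM in Mettl14 KO tumors. The groups were 123 and above against 96.8 and below, at a log2 fold change of -0.66 (SE 0.13 and edgeR adjusted p = 0.115). Ndrg1, a stress gene of low oxygen, read 123, 213, 159, 213 and 123 CPM against 277, 376, 225, 363 and 318 CPM. Its groups did not overlap, and its log2 fold change was -0.84 (SE 0.21 and edgeR adjusted p = 0.115). Pfkl, the liver form of phosphofructokinase, had a log2 fold change of -0.60 and overlapped, while Eno1 (enolase) at -0.80 and Pgk1 (phosphoglycerate kinase) at -0.68 did not overlap. Eno1b and Ero1l are not in this list and were named for their small p in this direction. Eno1b, at -0.88, is a near copy of Eno1, so the reads of Eno1 and Eno1b may be split with uncertainty. Ero1l, an oxidase of the endoplasmic reticulum that low oxygen induces, read 89.8, 124, 109, 125 and 97.8 CPM against 188, 226, 174, 224 and 205 CPM without overlap, at a log2 fold change of -0.83 (SE 0.15 and edgeR adjusted p = 0.113). After background per kb was subtracted, 6 of 20 members were lower at an unadjusted p under 0.05, against 3.01% of all genes (median -0.32). Without Mettl3 KO 1 and 3, 11 did, against 2.55% (median -0.53).

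Targets of p53, the factor that halts the cell cycle after damage, lay lower in Mettl3 KO in a like share. Of 13 tested, 10 were lower at an unadjusted p under 0.05 and 6 had no overlap, against 9.37% and 2.16% of all genes and 21.0% and 4.44% of those of at least 16 CPM, with a median of -0.53 and of -0.29 against like abundance. Sesn2, a sensor of amino acid and oxidative stress, read 11.3, 17.8, 13.05, 14.5 and 16.05 CPM in Mettl3 KO and 30.2, 21.00, 25.9, 23.2 and 23.8 CPM in Mettl14 KO tumors. The groups did not overlap, at a log2 fold change of -0.70 (SE 0.15 and edgeR adjusted p = 0.115). Cdkn1a, the cyclin-dependent kinase inhibitor p21, read 21.4, 25.2, 21.9, 28.6 and 43.5 CPM against 60.1, 54.8, 45.4, 39.03 and 72.7 CPM. Only Mettl3 KO 5 reached into the other group, and the log2 fold change was -0.88 (SE 0.21 and edgeR adjusted p = 0.115). Plk2, a polo-like kinase, had -0.64 and Mdm2, the ligase that degrades p53, -0.53, both without overlap. After background per kb was subtracted, 6 of 13 were lower at an unadjusted p under 0.05, against 3.01% of all genes, with a median of -0.28. Cell cycle genes gave 0 lower and 0 higher of 26 (median -0.19, and 0.10 against like abundance).

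Stress lists of the endoplasmic reticulum and of heat shock lay lower with less distance from genes of like abundance. Of 13 unfolded protein response genes, 9 were lower at an unadjusted p under 0.05, against 9.37% of all genes and 21.0% of those of at least 16 CPM, with a median of -0.38 but of -0.07 against like abundance. Dnajb9, a chaperone of that compartment, had the smallest p among them, at a log2 fold change of -0.63 with overlap. Of 14 ATF4 targets 5 were lower (median -0.45, and -0.14 against like abundance), and of 13 immediate early and heat shock genes 6 were (median -0.40, and -0.12). Hsph1, a heat shock chaperone, read 106, 111, 86.7, 142 and 132 CPM against 209.8, 198, 206, 159.7 and 229.9 CPM, without overlap, at a log2 fold change of -0.72. Once background per kb was subtracted, 1 unfolded protein response gene and 2 immediate early and heat shock genes were lower at an unadjusted p under 0.05, against 3.01% of all genes. Ribosomal protein genes (2 of 20 lower, median -0.38, and -0.04 against like abundance), proteasome subunits (7 of 24, median -0.30, and -0.01 against like abundance) and nuclear oxidative phosphorylation genes (0 of 20, median -0.27, and 0.02 against like abundance) had medians near those of other abundant genes.

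Mitochondrially encoded genes lay lower in Mettl3 KO by their median (median -0.55, and -0.29 against like abundance). Of 12 tested genes 2 were lower at an unadjusted p under 0.05, a share under the 21.0% of genes of at least 16 CPM. mt-Rnr1, the small ribosomal RNA of mitochondria, read 1529, 2776, 2107, 1181 and 1805 CPM against 4218, 6629, 9483, 3681 and 6438 CPM. The groups did not overlap, at a log2 fold change of -1.64 (SE 0.29 and edgeR adjusted p = 0.113). The library measure above counts the same RNA and is no separate evidence. Other genes among the 12 with the smallest p in this direction were Cldn9, a tight junction claudin, at 1.72 to 3.45 against 5.52 to 14.1 CPM (log2 fold change -1.74), and Fam50a at 13.7 to 22.5 against 31.9 to 33.8 CPM (log2 fold change -0.66). Neither overlapped.

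Macrophage genes gave a share of lower members near that of other abundant genes, with Cd163 at the smallest p. Cd163, the scavenger receptor for hemoglobin on resident and repair macrophages, read 12.9, 13.99, 16.5, 10.1 and 17.9 CPM in Mettl3 KO and 20.7, 52.2, 35.97, 44.7 and 29.05 CPM in Mettl14 KO tumors. The groups did not overlap, and control tumors held 44.8, 47.1, 27.96, 30.2 and 43.6 CPM, within the Mettl14 KO range. The log2 fold change was -1.29 (SE 0.24 and edgeR adjusted p = 0.113). Hmox1, the heme oxygenase that breaks down the heme Cd163 takes up, was named after its values were seen. It read 56.5, 28.3, 38.6, 27.8 and 18.4 CPM against 61.2, 94.2, 199.7, 123 and 63.4 CPM, without overlap, at a log2 fold change of -1.60 (SE 0.37 and edgeR adjusted p = 0.115). Control tumors held 26.4 to 50.6 CPM of it, within the Mettl3 KO range.

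Spp1 (osteopontin, a secreted adhesion protein) had a log2 fold change of -0.67 and Msr1 (the class A scavenger receptor) -0.42, both without overlap. Arg1, the arginase of tissue-repair macrophages, had -0.94 and overlapped. In all, 4 of 18 macrophage markers were lower at an unadjusted p under 0.05, against 21.0% of genes of at least 16 CPM, with a median of -0.34 and of -0.09 against like abundance. Their summed level of 3774 to 5371 CPM in Mettl3 KO overlapped 4984 to 9558 CPM in Mettl14 KO tumors. In 3 of the 18 macrophage markers the groups did not overlap, against 4.44% of genes of at least 16 CPM. Without Mettl3 KO 1 and 3, 5 of 18 were lower at an unadjusted p under 0.05, against 2.55% of all genes. After background per kb was subtracted, 2 of 17 were, against 3.01%. The share of genes of at least 16 CPM was not counted in either fit, so these counts do not set macrophage markers apart from other abundant genes. Of 14 neutrophil markers 9 were tested, with 0 at an unadjusted p under 0.05 (median -0.61, and -0.89 against like abundance). Among 22 chemokines and cytokines 1 passed this mark, Ccl7, which draws monocytes, with a log2 fold change of -0.55 and overlap (median -0.26, and -0.35 against like abundance).

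**Figure D4:**
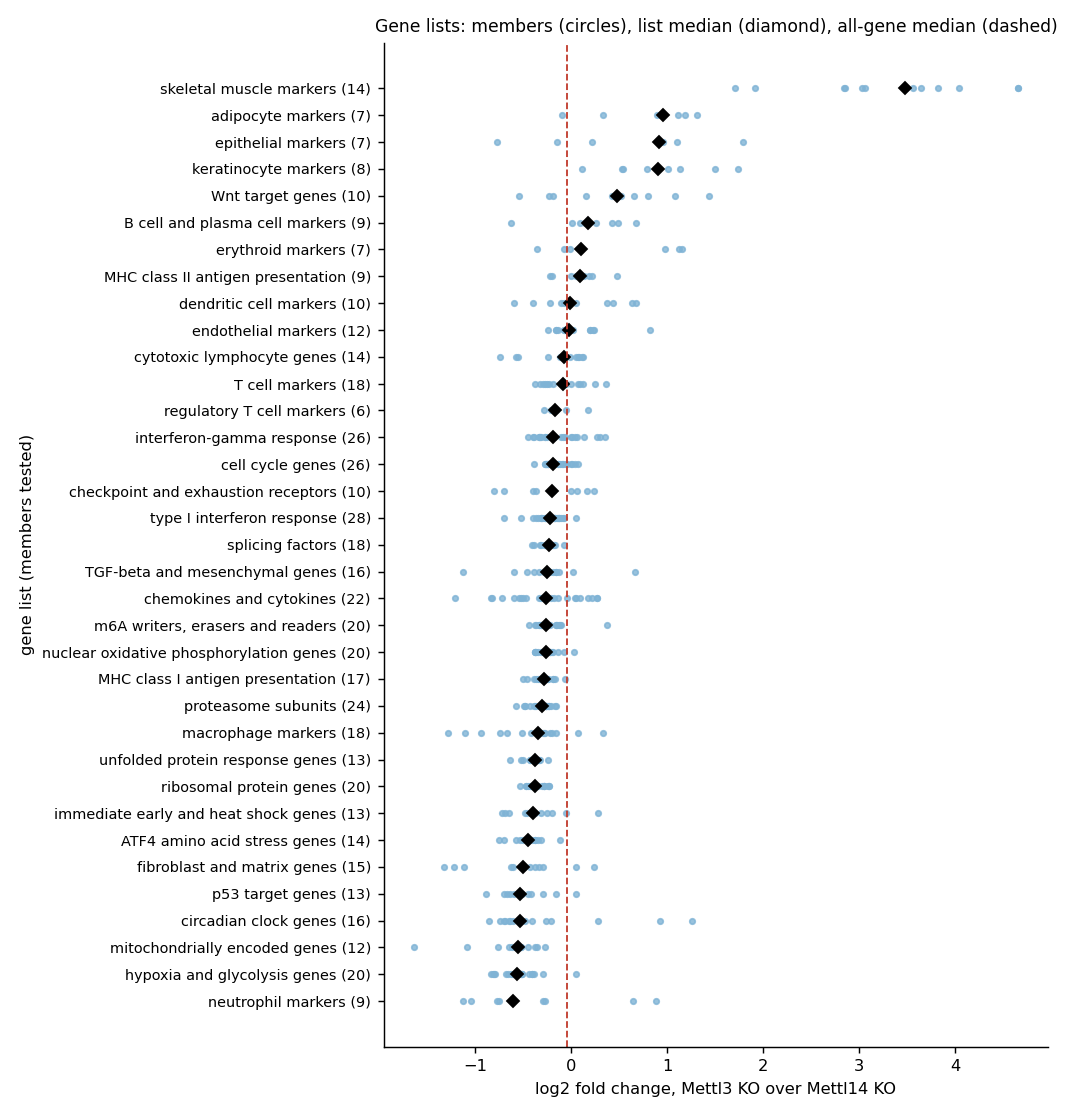
Log2 fold change of the tested members (circles) and their median (diamond) for 35 gene lists, with the median of all genes dashed. Skeletal muscle markers lie far to the right at a median of 3.48, most other lists between -0.56 and 0, and 3 lists of epithelial and fat genes at 0.90 to 0.95.

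Genes of the interferon-gamma response, which T cells switch on in tumor cells and macrophages, did not separate the knockouts. Of 26 members 2 were lower and 0 higher at an unadjusted p under 0.05, with a median of -0.19 and of 0.11 against like abundance. The list's summed level was 3477 to 5397 CPM in Mettl3 KO and 1788 to 8132 CPM in Mettl14 KO, against 999.9 to 1963 CPM in control tumors. The same held for type I interferon genes (0 lower and 0 higher of 28, median -0.22, and 0.04 against like abundance), MHC class I (0 and 0 of 17, median -0.28, and 0.02 against like abundance) and MHC class II genes (0 and 0 of 9, median 0.09, and 0.27 against like abundance). With cyclic loess scaling, the medians of the interferon-gamma, type I and MHC class I lists stood above 0, at 0.21, 0.09 and 0.11. A p that misses the threshold does not show that the knockouts act alike, and the intervals below are wide.

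Irf1, a transcription factor of the response, read 221, 176, 155, 148 and 169 CPM in Mettl3 KO and 319.9, 219, 131, 398 and 85.2 CPM in Mettl14 KO tumors. The Mettl14 KO tumors lay on both sides of the Mettl3 KO range, with tumor 4 highest and tumor 5 lowest. The log2 fold change was -0.33 (95% interval -1.04 to 0.38, adjusted p = 0.503 by edgeR). Cxcl9 and Cxcl10, which draw T cells, had log2 fold changes of 0.27 (95% interval -0.83 to 1.36) and -0.21 (-1.001 to 0.58). For Ifng itself it was 0.27 (-1.03 to 1.57) at 1.01 to 5.29 and 0.711 to 5.83 CPM, and for the chemokine Ccl5 0.17 (-2.07 to 2.41). The edgeR adjusted p of these 4 genes ranged from 0.712 to 0.918.

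H2-Aa, an alpha chain of MHC class II, had a wide spread. It read 551, 165, 128, 185 and 167 CPM in Mettl3 KO and 291, 238, 56.7, 889.7 and 20.7 CPM in Mettl14 KO tumors, and 10.2, 14.2, 104, 61.8 and 11.9 CPM in control tumors. Mettl14 KO 3 and 5 lay below every Mettl3 KO tumor, and Mettl14 KO 4 above every one. Mettl3 KO 1 stood apart from its group. The log2 fold change was -0.22 (95% interval -2.18 to 1.74, adjusted p = 0.878 by edgeR).

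**Figure D5:**
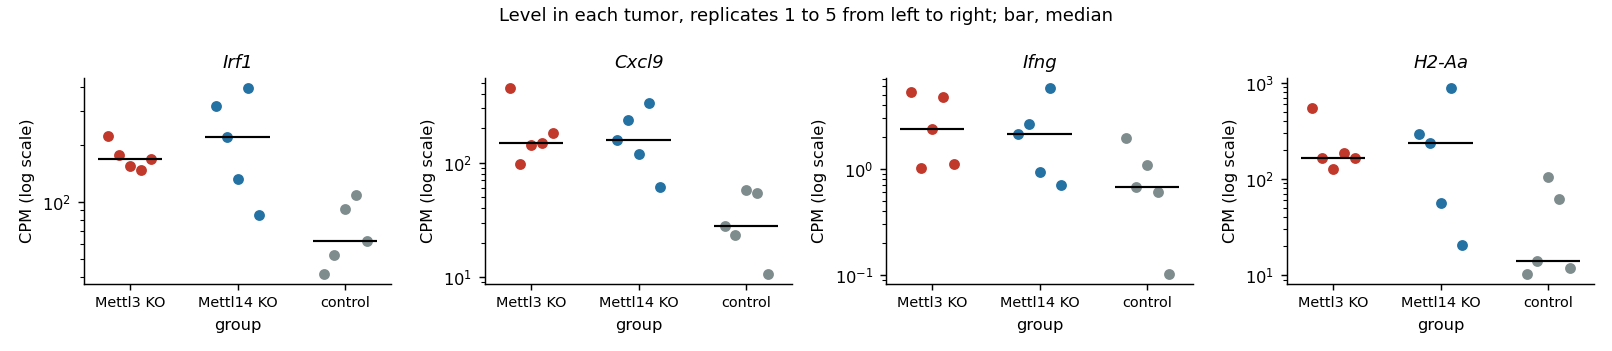
Level of Irf1, Cxcl9, Ifng and H2-Aa in each tumor (CPM, log scale), 1 point per library and a bar at the group median. The knockouts overlap in all 4 genes, with Mettl14 KO 5 lowest and Mettl14 KO 4 highest of their group.

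The members with the smallest p were upstream in the pathway. Jak1, the kinase bound to the receptor, read 165, 133, 133, 98.1 and 163 CPM against 191, 179.7, 195, 278 and 152 CPM, at a log2 fold change of -0.45 (SE 0.18 and edgeR adjusted p = 0.1498). Ifngr2, a chain of the receptor, read 39.98, 39.2, 32.5, 30.1 and 41.3 CPM against 50.9, 40.3, 44.2, 59.6 and 43.6 CPM, at a log2 fold change of -0.31 (SE 0.14 and edgeR adjusted p = 0.1797). Both overlapped between groups, and against like abundance they stood at -0.15 and -0.07. Nlrc5, the regulator of MHC class I genes, was at -0.39 (95% interval -0.96 to 0.19). Promoters of Jak1 (chr4:101265174-101265473 on the minus strand) and Ifngr2 (chr16:91546809-91547108 on the plus strand) are shown as those of the interferon and MHC class II members with the smallest p, from the same RefSeq table. They were scanned on both strands for the interferon-gamma motif TTCNNNGAA (GAS), whose matches would be in capitals.
Jak1: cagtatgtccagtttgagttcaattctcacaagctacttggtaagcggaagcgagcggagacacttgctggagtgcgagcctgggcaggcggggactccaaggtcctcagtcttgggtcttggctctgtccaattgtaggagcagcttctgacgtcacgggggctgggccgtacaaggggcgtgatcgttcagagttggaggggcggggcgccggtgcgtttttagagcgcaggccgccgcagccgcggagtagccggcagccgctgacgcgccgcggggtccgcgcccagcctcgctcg
Ifngr2: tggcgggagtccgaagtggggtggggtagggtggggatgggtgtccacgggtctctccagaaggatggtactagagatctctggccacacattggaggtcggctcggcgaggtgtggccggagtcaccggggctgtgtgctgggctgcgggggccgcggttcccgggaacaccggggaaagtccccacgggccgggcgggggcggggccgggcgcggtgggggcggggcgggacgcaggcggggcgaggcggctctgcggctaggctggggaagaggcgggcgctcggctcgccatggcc
Neither window held a match (0 in each). Of all 32851 promoters in the table, 8.298% held the GAS letters. Of 18 interferon-gamma list members in the table, 6 (33.3%) held them, against 8.47% of 27025 genes. Here too the share describes a list grouped by role and not the difference between the knockouts.

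T cell and cytotoxic genes gave no member at an unadjusted p under 0.05 among 18 and 14 tested, with medians of -0.08 and -0.08 (-0.17 and -0.23 against like abundance). Checkpoint and exhaustion receptors gave 2 of 10 lower, near the 21.0% of genes of at least 16 CPM (median -0.20, and -0.20 against like abundance). Tnfrsf9 (4-1BB), a costimulatory receptor of activated T cells, read 41.4, 42.9, 31.2, 55.1 and 39.3 CPM against 86.2, 68.2, 46.3, 134 and 52.3 CPM. The groups overlapped at Mettl14 KO 3 and 5, at a log2 fold change of -0.80 (SE 0.26 and edgeR adjusted p = 0.117). Tigit, an inhibitory receptor of T and NK cells, read 5.06, 4.36, 4.04, 4.38 and 3.19 CPM against 9.25, 7.05, 5.18, 8.83 and 5.28 CPM. It did not overlap, at a log2 fold change of -0.70 (SE 0.25 and edgeR adjusted p = 0.128).

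Circadian clock genes lay on both sides. Of 16, 6 were lower and 2 higher at an unadjusted p under 0.05, against 9.37% and 17.5% of all genes, with a median of -0.53 and of -0.35 against like abundance. Per2, a repressor of the clock, read 12.4, 18.4, 17.1, 15.8 and 11.1 CPM against 33.99, 26.9, 35.04, 30.9 and 16.4 CPM. Mettl14 KO 5 alone lay within the Mettl3 KO range, at a log2 fold change of -0.86 (SE 0.21 and edgeR adjusted p = 0.115). Control tumors held 27.4 to 57.7 CPM, above every Mettl3 KO tumor. Bhlhe40, a clock factor that low oxygen also induces, had -0.65, and Npas2, an activator of the clock at 2.64 to 8.77 and 1.296 to 4.01 CPM, 1.25. With the share of reads outside genes as a covariate, Npas2 was at 0.12.

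Most markers of skin and fat were weakly expressed, and their medians lay above 0, as did that of other genes of low level. Keratinocyte markers gave 4 of 8 higher at an unadjusted p under 0.05, against 17.5% of all genes and 38.6% of those of 2 to 4 CPM (median 0.90, and 0.19 against like abundance). Adipocyte markers gave 3 of 7 (median 0.95, and 0.32), and their summed level was 57.2 to 120.0 CPM in Mettl3 KO and 42.6 to 70.5 CPM in Mettl14 KO tumors. Epithelial markers gave 3 higher and 1 lower of 7 (median 0.91, and 0.08), and their summed level was 69.3 to 127 CPM in Mettl3 KO and 89.96 to 179.9 CPM in Mettl14 KO tumors. Within the last, Krt7 was at 0.91 and Epcam at 1.79, while Krt20 was at -0.77 and had every tumor of both knockouts below the control range of 157 to 214 CPM. The Krt20 ranges of the 2 knockouts overlapped. With the share of reads outside genes as a covariate, the keratinocyte and epithelial medians were -0.16 and -0.25, Krt7 was at 0.29 and Epcam at 0.22.

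Genes of the m6A machinery gave 4 of 20 lower and 0 higher at an unadjusted p under 0.05, near the 21.0% lower among genes of at least 16 CPM, with a median of -0.26 and of 0.01 against like abundance. The readers Ythdf2 and Igf2bp2 and the eraser Alkbh5 had log2 fold changes of -0.37, -0.44 and -0.38, all with overlap between the groups. Against genes of like abundance these were -0.09, -0.18 and -0.08. Their edgeR adjusted p ranged from 0.162 to 0.1705.

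The remaining lists of immune and vessel cells gave few members past the unadjusted mark. Regulatory T cell markers gave 0 lower and 0 higher of 6 (median -0.17, and -0.47 against like abundance), with Foxp3, their defining factor, at 2.39 to 5.97 against 3.98 to 7.02 CPM (log2 fold change -0.28). B cell and plasma cell markers gave 0 lower and 0 higher of 9 (median 0.18, and 0.27 against like abundance), with the B cell factor Pax5 at 5.02 to 18.2 against 3.95 to 13.2 CPM (log2 fold change 0.49). Dendritic cell markers gave 1 lower and 0 higher of 10 (median -0.01, and 0.17 against like abundance), and the one that lay lower was Fscn1, the actin bundler of mature dendritic cells, at 30.9 to 49.2 against 47.8 to 77.9 CPM (log2 fold change -0.40). Endothelial markers gave 0 lower and 1 higher of 12 (median -0.03, and 0.11 against like abundance), and the one that lay higher was Vwf, von Willebrand factor, at 11.1 to 25.5 against 7.17 to 15.3 CPM (log2 fold change 0.82). Erythroid markers gave 0 lower and 2 higher of 7 (median 0.10, and 0.19 against like abundance), led by Slc4a1, the anion exchanger of red cells, at 3.85 to 9.91 against 1.77 to 5.25 CPM (log2 fold change 0.98). With the covariate Vwf was at 0.22 and Slc4a1 at 0.12. All 5 genes overlapped between the groups, and their edgeR adjusted p ranged from 0.1205 to 0.512.

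For most lists whose member with the smallest p has not been named above, that member is given here, whether or not it passed. Among lymphoid and myeloid lists, the T cell coreceptor Cd4 was at 5.27 to 32.9 against 4.47 to 25.6 CPM (log2 fold change 0.36), Prf1 (perforin, which opens pores in target cells) at 26.1 to 53.4 against 20.01 to 163 CPM (log2 fold change -0.74) and Ltf (lactoferrin of neutrophil granules) at 1.59 to 7.24 against 1.46 to 3.94 CPM (log2 fold change 0.89). In the interferon and MHC lists, Oasl1, an antiviral gene, was at 20.98 to 32.2 against 21.1 to 55.3 CPM (log2 fold change -0.40), the class I gene H2-Q6 at 26.7 to 45.3 against 21.8 to 80.7 CPM (log2 fold change -0.50) and H2-Ob, which tempers class II loading in B cells, at 1.84 to 7.58 against 1.41 to 7.73 CPM (log2 fold change 0.48). H2-Q6 belongs to a family of near copies, so its reads may be split with uncertainty. None of these 6 genes passed an unadjusted p of 0.05, and all overlapped.

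Of the genes with roles inside most cells, Psmd11, a subunit of the proteasome lid, read 40.7, 61.02, 43.4, 37.2 and 60.6 CPM in Mettl3 KO and 80.3, 67.4, 73.4, 65.8 and 70.7 CPM in Mettl14 KO tumors. Its groups did not overlap, at a log2 fold change of -0.49 (SE 0.15 and edgeR adjusted p = 0.115). The ribosomal protein gene Rps6 was at 169.8 to 342 against 287 to 457 CPM (log2 fold change -0.53) and E2f1, a driver of S phase entry, at 17.9 to 33.7 against 27.4 to 43.6 CPM (log2 fold change -0.38). Splicing factors gave 1 lower and 0 higher of 18 (median -0.23, and 0.08 against like abundance), the one being Srsf4 at 12.8 to 25.1 against 20.3 to 32.4 CPM (log2 fold change -0.41). These 3 overlapped between the groups.

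Wnt target genes were split, with 1 lower and 3 higher of 10 and a median of 0.47 (0.22 against like abundance). Lgr5, the receptor that marks gut stem cells, read 13.1, 4.05, 12.7, 12.96 and 5.51 CPM in Mettl3 KO and 1.59, 5.25, 2.79, 4.34 and 4.87 CPM in Mettl14 KO tumors. Mettl3 KO 2 lay within the other group, at a log2 fold change of 1.43 (SE 0.41 and edgeR adjusted p = 0.115). In control 1 it read 13.1 CPM, and in the other 4 controls at most 2.71 CPM. Flg (filaggrin of the skin) was at 2.03 to 7.62 against 0.648 to 2.62 CPM (log2 fold change 1.74) and Pck1 (a carboxykinase of fat and liver) at 2.03 to 4.76 against 1.001 to 2.49 CPM (log2 fold change 1.31), both with overlap. With the covariate Lgr5 was at 0.37, Flg at 0.50 and Pck1 at 0.42.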

How the data were processed

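The values deposited by the authors are raw counts of reads for each Ensembl gene. The submitters' processing notes name cutadapt 1.18, HISAT2 2.1.0, HTSeq 0.11.2 and mm10. No annotation release or strand setting is given in the sources used here, so overlapping, antisense and near-identical genes are uncertain. Lines for reads of no gene (64.1% to 85.5% of reads) entered neither library sizes nor tests. Genotype fields of samples titled Mettl14 name Mettl4, and the title was followed. The 12 m6A immunoprecipitation samples were not analysed here.

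The 10 knockout libraries were fitted with edgeR 4.0.16 in R 4.3.3 (quasi-likelihood test, robust, filterByExpr at a minimum count of 10, TMM scaling, Benjamini-Hochberg at 0.05). Depth was 4.35 to 17.02 M reads on genes per library (M for mega). CPM are on a TMM scale over 15 libraries. Standard errors came from the F statistic. The 8 library measures were tested by exact permutation. Alternatives used limma 3.58.1 and DESeq2 1.42.0. The script was tested on simulated data. Each of 20 replicate pairs differed beyond sampling noise (chi-square per gene at least 9.14).

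The comparison and the 35 gene lists (546 of 548 genes found) were chosen with earlier results of these data known. Named genes were the targets, Irf1, Ifng, Cxcl9, Cxcl10 and Ccl5, the 12 largest passing rises and falls of at least 1 CPM without gene models and pseudogenes (here, with none passing, the 12 smallest p per direction) and up to 4 members per list by p. Of 165 genes so taken, 81 are printed and 84 are not reported here. This choice among them was made after their values and alternatives were seen, and so were the 3 genes outside the rule (Myh4, Hmox1, Pgk1) and the hypoxia promoters. The planned tests of each knockout against control and the planned Mettl3 and Mettl14 proteins are not reported. Gene positions are from GENCODE M21 (mm10), promoters from RefSeq (GRCm38.p6).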

Additional observations from a re-analysis of the deposited data

Results flagged for a closer look

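In groups of 5, a library was singled out where its gap to the nearest other exceeded 0.71 of the group's range. Of 184 groups tested (named genes and library measures), 17 held such a library, and chance flags about 1 in 20 groups.

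In Mettl3 KO, tumor 1 was the one far above its group for Cxcl9 (451 CPM), Ccl5 (52.2 CPM), H2-Aa (551 CPM) and immunoglobulin genes (1212 CPM of gene counts). Tumor 2 was highest for Mettl3 (16.3 CPM), tumor 5 for Dnajb9 (21.9 CPM), and tumor 4 lowest for Msr1 (164 CPM). Tumor 1 was also highest for Cd4 (32.9 CPM). In Mettl14 KO, tumor 4 was highest for Cxcl10 (69.1 CPM), Arg1 (328 CPM) and immunoglobulin genes (1406 CPM of gene counts). Tumor 5 was highest for Myh4 (17.4 CPM), tumor 1 for Car3 (2.53 CPM) and E2f1 (43.6 CPM), tumor 2 for Pck1 (2.49 CPM), tumor 4 for H2-Ob (7.73 CPM) and tumor 3 for Fam50a (33.8 CPM).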

How the results depend on the processing

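Called genes (0 by edgeR) stayed at 0 with median-of-ratios scaling, library totals, voom and limma, all 15 libraries, and without satellite-like, mitochondrial and ribosomal RNA genes. The count was 1545 by DESeq2 (1268 higher, 277 lower) and 977 without a filter (870 and 107). It was 1 with cyclic loess (Ank2, higher), 2 at a mean of at least 1 CPM (Nlgn1 and Gm6639, both higher) and 1 with reads outside genes as a covariate (Gm6639, higher). Leaving out 1 library gave 0 to 1396 calls (0 to 1193 higher, 0 to 203 lower), with 1396 without Mettl3 KO 2, 2 without Mettl3 KO 4 (Nlgn1 and Gm6639) and 0 in the other 8. With the replicate number as a block 5 genes were called, all higher (Myh4, Car3, Acta1, Myh1 and 2010109I03Rik). Same-numbered samples had correlations of -0.71 to -0.05 and none was best with its own number, so they share only a number. The difference in Mettl3 level (-3.32 CPM) ran from -3.94 to -2.66 CPM with 1 library left out. The cause of these differences was not tested.

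The 2 alternatives added after seeing the data, background per kb subtracted (from receptor genes of the nose) and Mettl3 KO 1 and 3 left out, called 0 and 0 genes, with 1319 of 16800 and 2175 at an unadjusted p under 0.05. Library measures passing adjustment were 2, also with gene counts without satellite-like models as denominator 2, and 0 to 0 with 1 library left out, where both stayed at the smallest p that 4 against 5 allows. With that denominator the differences in hemoglobin (0.33), immunoglobulin (211) and small nucleolar RNA genes (49.97 CPM) changed sign, and with 1 library left out the immunoglobulin difference ran from -245 to 244 CPM.

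Of 165 genes taken by the naming rule, 114 kept their sign in every alternative that could be fitted. The printed genes are the steadier ones, with 68 of 81 against 46 of 84 not printed. The printed genes that changed sign did so as follows. With cyclic loess, Mettl14 was 0.20, Irf1 0.16, Ifng -0.53, Cxcl10 0.11, Ccl5 -0.29, Nlrc5 0.0359, H2-Ob -0.0833 and H2-Aa 0.79 (log2 fold change). With the covariate, Mettl14 was 0.18, Ifng -0.70, Cxcl9 -0.0443, Ccl5 -0.88, H2-Ob -0.21, Cd4 -0.42, Pax5 -0.33, Ltf -0.20 and Srsf4 0.0446. With background subtracted, Mettl14 was 0.0796, Irf1 0.0142, Cxcl10 0.0956 and H2-Aa 0.22. Without Mettl3 KO 1 and 3, Mettl14 was 0.00897, Ifng -0.0843, Cxcl9 -0.27, Cd4 -0.37 and Ccl5 -1.30. With the replicate block, Cxcl10 was 0.0163 and H2-Aa 0.55. With voom, Ccl5 was -0.30 and H2-Aa 0.58. Ccl5 was -0.0848 with library totals and -0.0899 without a filter. Leaving out 1 library gave -0.0775 to 0.85 for Ifng, -0.29 to 0.55 for Cxcl9, -0.42 to 0.27 for Cxcl10, -1.21 to 1.02 for Ccl5, -0.30 to 0.91 for Cd4 and -0.83 to 0.71 for H2-Aa. The fold of 17 of 84 printed genes moved by over 1.5 times with the covariate (11 toward 0, 6 across it and 0 away) and of 15 with cyclic loess (13, 2 and 0), where Myot was at 1.41, Vmn2r75 at 0.81, Pck1 at 0.51 and Epcam at 0.62. List medians kept their sign in 23 of 23 alternatives for skeletal muscle (2.61 to 3.93), hypoxia (-0.75 to -0.27) and p53 (-0.71 to -0.28) genes, and in 19 for interferon-gamma genes (-0.40 to 0.21). The all-gene median moved from -0.05 to -0.14 with library totals and to 0.43 without a filter. Depth limits genes of a few CPM most.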
